A study of Mus musculus with 2 samples.

Results

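The genes described here are mostly brakes of the mammalian cell cycle that act through the cyclin-dependent kinases (CDKs), p53 and Rb. With them are Mdm2, whose product acts against p53, and the lamin gene Lmnb1. The list names 10 genes, and a gene was measured where a probe set carried its symbol, and no other, in the array's annotation. This gave 9 genes with 15 probe sets, out of 18193 genes and 45037 non-control probe sets. No probe set of that kind was found for Trp53, which is not analysed here. The RNA came from vascular cells flow-sorted from the remaining right lobes of mature lungs of C57BL/6J mice that were labelled old or young and had all lost the left lobe by surgery (pneumonectomy); they are called old cells and young cells here. There was 1 array from old mice and 1 from young mice, and the number of arrays limits the precision of every value. How old the mice were, how long after surgery the lobes were taken, which markers the sort used and how many mice each array holds is not given in the sources used here. Unoperated mice were not analysed here. No difference below has a replicate check, and no statistical test was possible. No measurement here checks the age labels, and the lung origin of the cells was not checked.

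Progression through the G1 phase of the cell cycle depends on CDKs that phosphorylate the retinoblastoma protein Rb and so release the E2F transcription factors. The INK4 proteins (p15, p16, p18 and p19, from Cdkn2b, Cdkn2a, Cdkn2c and Cdkn2d) bind CDK4 and CDK6, whereas the Cip/Kip proteins p21 and p27 (Cdkn1a and Cdkn1b) bind a wider range of cyclin-CDK complexes. Cdkn1a and Mdm2 are direct targets of p53, and Mdm2 is the ligase that keeps p53 low. Cdkn2a is unusual in that it encodes p16Ink4a and, from another first exon and another reading frame, p19Arf, which binds Mdm2. Higher Cdkn2a and Cdkn1a and lower Lmnb1 are widely used as signs of cellular senescence, and Cdkn2a expression is known to increase with age in many mouse tissues.

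Cdkn2b and Cdkn2a are neighbours, and the windows before their start sites are shown because these were the members with the largest ratios and lay on opposite sides. Each window holds the 250 bases before a RefSeq start site (build GRCm38.p6, minus strand of chromosome 4), printed 5′ to 3′ in the direction of transcription. The Cdkn2b start lies 16413 bases from the upstream Cdkn2a start, which is that of the Arf first exon, and this lies 12427 bases from the downstream one, that of the Ink4a first exon. Capitals mark matches to an E2F motif (TTTCCCGC, TTTGGCGC, TTTCGCGC or TTTGCCGC) and to the GC box GGGCGG, searched on both strands.
Cdkn2b, chr4:89311033-89311282: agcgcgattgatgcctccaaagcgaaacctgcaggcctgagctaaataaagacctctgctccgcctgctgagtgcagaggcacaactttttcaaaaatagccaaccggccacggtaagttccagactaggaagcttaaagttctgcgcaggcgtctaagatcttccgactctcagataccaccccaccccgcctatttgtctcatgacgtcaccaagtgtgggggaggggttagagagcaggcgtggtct
Cdkn2a, upstream (Arf) start, chr4:89294620-89294869: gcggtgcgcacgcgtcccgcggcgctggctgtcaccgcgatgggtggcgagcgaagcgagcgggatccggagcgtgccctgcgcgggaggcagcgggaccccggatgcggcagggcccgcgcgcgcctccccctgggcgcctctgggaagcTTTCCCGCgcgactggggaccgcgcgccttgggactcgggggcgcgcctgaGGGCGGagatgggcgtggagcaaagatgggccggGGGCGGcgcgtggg
Cdkn2a, downstream (Ink4a) start, chr4:89282193-89282442: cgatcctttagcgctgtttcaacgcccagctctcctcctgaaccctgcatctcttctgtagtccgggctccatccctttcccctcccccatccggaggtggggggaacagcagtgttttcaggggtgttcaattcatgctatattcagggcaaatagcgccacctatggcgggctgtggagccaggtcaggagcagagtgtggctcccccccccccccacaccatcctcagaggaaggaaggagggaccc
The upstream Cdkn2a window held 1 E2F match and 2 GC boxes, and neither of the other windows held a match to these motifs or to the TATA motif TATAAA. Among 32851 RefSeq windows of the same length, 1.86% held the E2F motif, 32.7% the GC box and 12.4% the TATA motif. The upstream Cdkn2a window was also dense in CpG, with 40 of them and 78.4% G and C, against 7 and 60% in the downstream Cdkn2a window and 12 and 53.6% in the Cdkn2b window. The median window held 6 CpG and 52.4% G and C. RefSeq windows were used for 7 of the 9 measured genes, with 10 start sites, and not for Rb1 or Lmnb1. The E2F match in the upstream Cdkn2a window was the only one among those 10, and 6 of them held a GC box. A match describes letters in the window and not a bound site.

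Values below are MAS5 signals (arbitrary intensity units) after both arrays were scaled to a median log2 ratio of 0, and every log2 ratio is old minus young. The floor, below which values were treated as unordered, was 73.7 signal units. A gene was represented by its brightest probe set, and a difference of 2-fold, a log2 ratio of 1 in either direction, was the fixed size for counting.

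All 12 endothelial markers were above the floor on both arrays, with summed signals of 149378 in old cells and 87921 in young cells, 5 of them higher by 2-fold or more in old cells (3 with quantile normalization or loess) and 1 in young cells. Markers of most other cell types differed far more. Those of lung epithelium (median log2 ratio 0.76) and of T, B and natural killer cells (0.33) did not, against 0.59 for endothelial markers, lower bounds included. Leukocyte markers summed to 35978 in old cells and 2140 in young cells (9 of 10 higher in old cells), and macrophage markers to 46299 in old cells and 632 in young cells (8 of 10). Fibroblast markers summed to 30118 in old cells and 411 in young cells (7 of the 8 above the floor), pericyte and smooth muscle markers to 28257 in old cells and 823 in young cells (9 of 11), and mesothelial markers to 14573 in old cells and 175 in young cells (7 of 7). Liver markers showed the same direction, with hepatocyte markers at 18346 in old cells and 470 in young cells (10 of 10) and liver sinusoidal endothelial markers at 178624 in old cells and 19703 in young cells (9 of 10). In old cells the liver sinusoidal sum was thus above the endothelial sum of 149378. The source of this liver-type signal in cells described as from lung was not tested. Lymphatic endothelial markers went the other way, with 35086 in old cells and 64662 in young cells and 5 of 7 higher in young cells. Their median log2 ratio, lower bounds included, was -5.23, or -1.88 in the mean over probe sets, and 5 of 7 reached the floor in old cells. Lyve1 is in both the lymphatic and the liver sinusoidal list and so enters both sums. In young cells the floor was reached by 4 of the leukocyte markers, 2 macrophage, 1 fibroblast, 3 pericyte and smooth muscle, 1 mesothelial, 1 hepatocyte and 5 liver sinusoidal markers, so many of the markers counted as higher in old cells are lower bounds, and the young sums include values below the floor, which have no order. With a floor of 489 the counts higher in old cells were 4 of 7 for hepatocyte, 6 of 9 for leukocyte and 3 of 5 for pericyte and smooth muscle markers. In young cells the leukocyte gene Ptprc, the macrophage genes C1qa and C1qc, the fibroblast genes Col1a1 and Col3a1 and the hepatocyte gene Alb were below the floor. Lung epithelial markers reached at most 295 in old cells (Hopx) and 243 in young cells (Ager), with Sftpc, Scgb1a1 and Aqp5 below the floor on both arrays, and markers of T, B and natural killer cells at most 201 in old cells (Nkg7) and none above the floor in young cells. The part of these cell types in the ratios below was not tested. In RNA from a sort of several cell types, fewer cells of a type and less RNA per cell cannot be told apart. The 3' signal over the 5' signal of control probe sets, which reflects RNA integrity, was 1.32 in old and 1.20 in young cells for Actb, and 0.718 in old and 0.806 in young cells for Gapdh.

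All 9 genes were above the floor on both arrays. In old cells 1 member, Cdkn2b, was higher by 2-fold or more, against a background of 11.7% of the 10004 genes above the floor on both arrays. In young cells 1 member, Cdkn2a, was higher by 2-fold or more, against a background of 10.6%. The other 7 lay within 2-fold, from -0.98 to 0.61. The median over the 9 members was 0.06, against -0.02 over the 10004 genes. A share of 1 of 9 in each direction is near the background and is not a result about these genes.

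**Figure D1:**
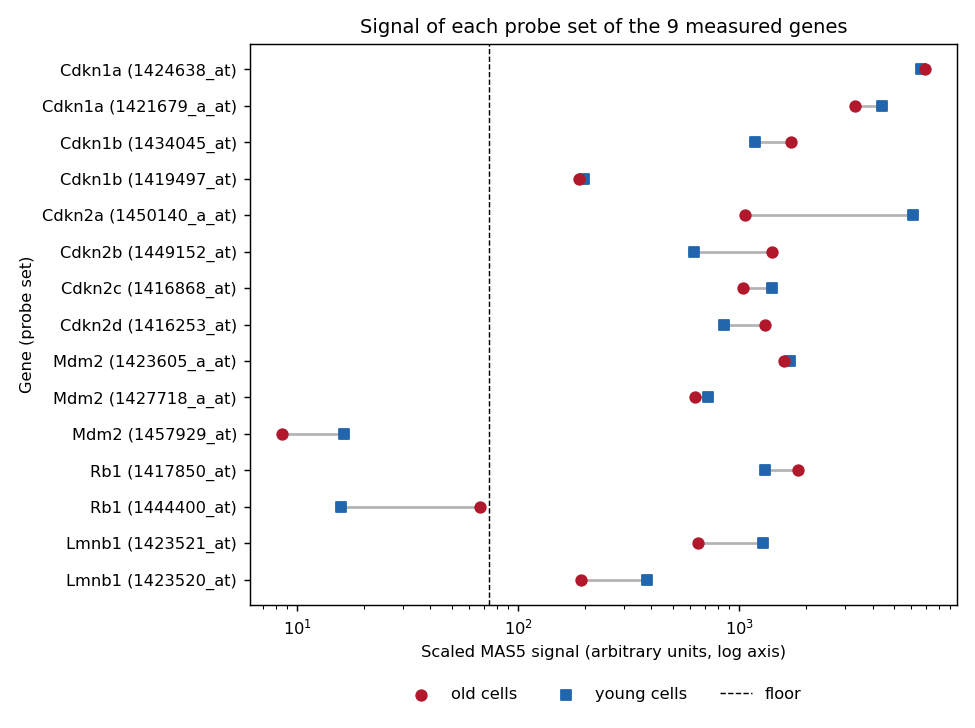
Scaled MAS5 signal (x axis, log scale) of each of the 15 probe sets of the measured genes (y axis), with circles for old and squares for young cells and a dashed line at the floor of 73.7. The widest gap above the floor is that of Cdkn2a, at 1059 in old cells and 6096 in young cells, and 2 probe sets, of Mdm2 and Rb1, lie below the floor on both arrays.

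The INK4 genes did not share a direction. Cdkn2a (probe set 1450140_a_at) had a signal of 1059 in old cells and 6096 in young cells. It was thus 5.76-fold higher in young cells, a log2 ratio of -2.53, and both values were far above the floor. Only 165 of the 10004 genes had a ratio further to the young-cell side. The probe set is the only one for Cdkn2a and is of a kind whose probes match alternative transcripts of a gene, so Ink4a and Arf transcripts cannot be told apart in it. Under the 8 alternative ways of processing the signals the ratio stayed between -2.67 and -2.49.

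Cdkn2b, whose product p15 inhibits the same kinases and which is known as a target of TGF-beta signalling, went the other way. Its 1 probe set (1449152_at) had a signal of 1410 in old cells and 623 in young cells, a log2 ratio of 1.18 or 2.26-fold higher in old cells. Among the 10004 genes it ranked 954 from the old-cell side. The log2 ratios of the neighbouring genes therefore differed by 3.70, or 13.0-fold. These were the lowest and the highest ratio among the members, so a wide gap follows from the choice of the pair. The SD of the log2 ratio over the 10004 genes was 1.13, which describes single ratios and not differences between the ratios of a pair. Over 4514 genes with several probe sets the within-gene SD was 0.42, which describes probes and not mice, and neither gene has another probe set here to compare.

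Cdkn2c and Cdkn2d, which encode p18Ink4c and p19Ink4d, were within 2-fold. Cdkn2c (1416868_at) had a signal of 1039 in old cells and 1405 in young cells, a log2 ratio of -0.44. Cdkn2d (1416253_at) had a signal of 1310 in old cells and 856 in young cells, a log2 ratio of 0.61. Of the 10004 genes, 52.6% had a ratio at least as far from 0 as that of Cdkn2c and 39.5% at least as far as that of Cdkn2d, so both lay within the bulk of differences between these arrays. Each rests on 1 probe set. The Cdkn2d window held 3 GC boxes and 16 CpG, and of the windows of Cdkn2c 1 held 3 GC boxes and 29 CpG and the other no GC box and 6 CpG.

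**Figure D2:**
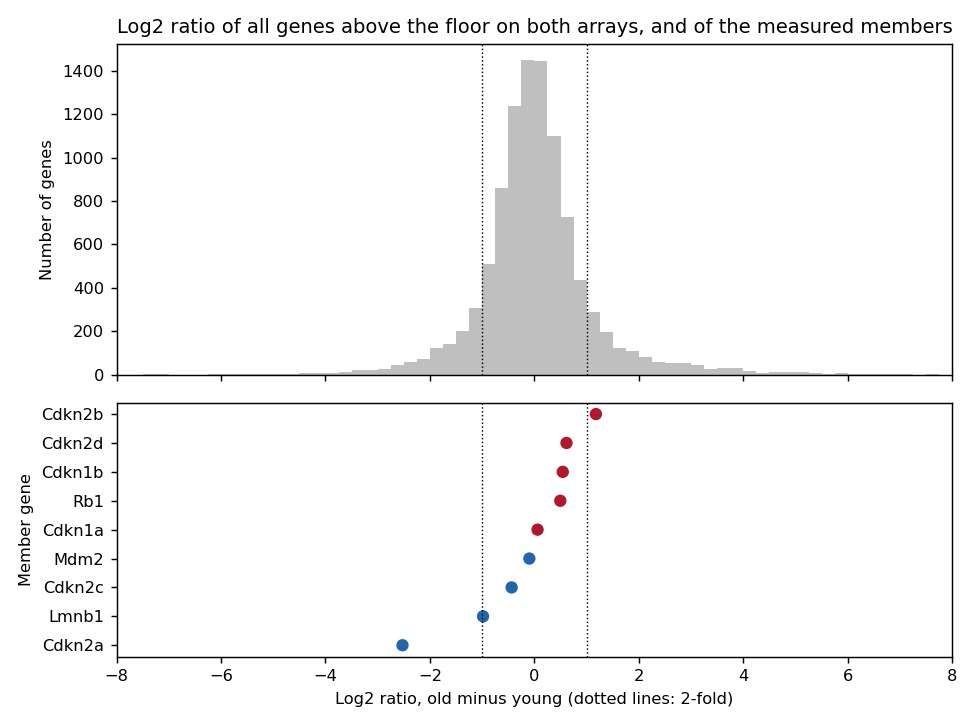
Upper panel, number of genes (y axis) by log2 ratio, old minus young (x axis), for the 10004 genes above the floor on both arrays. Lower panel, the ratio of each of the 9 members on the same x axis (red above 0, blue below 0), with dotted lines at 2-fold. Cdkn2a lies in the tail on the young-cell side at -2.53 and Cdkn2b just past 2-fold on the old-cell side at 1.18, while the rest lie in the body of the distribution or, for Lmnb1 at -0.98, at its shoulder.

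Cdkn1a and Cdkn1b lay within 2-fold in all of their probe sets. Cdkn1a, which encodes p21, the inhibitor that p53 induces, gave strong signals on both arrays. Its brighter probe set (1424638_at) read 6926 in old cells and 6643 in young cells, a log2 ratio of 0.06. The other (1421679_a_at) read 3329 in old cells and 4401 in young cells, a log2 ratio of -0.40. The probe sets thus had opposite signs, and the gene's ratio was below 0 on the values as deposited (-0.07), with quantile normalization (-0.20), with loess (-0.14) and in the mean over probe sets (-0.17). No direction is given for Cdkn1a. One of its RefSeq windows held 2 GC boxes and 19 CpG, and the other held no GC box and 2 CpG.

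Cdkn1b encodes p27, which holds resting cells out of the cycle. Its brighter probe set (1434045_at) read 1705 in old cells and 1170 in young cells, a log2 ratio of 0.54. The other (1419497_at) read 189 in old cells and 199 in young cells, a log2 ratio of -0.07, so these probe sets disagreed in sign as well. The Cdkn1b window held 1 GC box and 28 CpG. Their ratios differed by 0.62 and those of Cdkn1a by 0.46.

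Mdm2, whose product is both induced by p53 and directed against it, had ratios close to 0. Its brightest probe set (1423605_a_at) read 1591 in old cells and 1702 in young cells, a log2 ratio of -0.10. The next (1427718_a_at) read 633 in old cells and 723 in young cells, a log2 ratio of -0.19. A further one (1457929_at) was below the floor on both arrays, at 8.52 in old cells and 16.3 in young cells, and gives no ratio. Over the probe sets of the p53 targets Cdkn1a and Mdm2 above the floor, the largest difference was 1.32-fold. The Mdm2 window held 2 GC boxes and 29 CpG.

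Rb1, which encodes the pocket protein that the CDKs inactivate, read 1838 in old cells and 1303 in young cells in its probe set above the floor (1417850_at), a log2 ratio of 0.50. Its other probe set (1444400_at) was below the floor on both arrays, at 67.2 in old cells and 15.8 in young cells. Where probe sets were averaged regardless of the floor, Rb1 came out at 1.29, which rests on that dim probe set. Of the 10004 genes, 48.0% had a ratio at least as large in size as the 0.50 of the bright one.

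Lmnb1 encodes lamin B1, a filament of the nuclear envelope whose loss is described in senescent cells, and it was the member nearest to the 2-fold line without passing it. Its brighter probe set (1423521_at) read 647 in old cells and 1278 in young cells, and the dimmer (1423520_at) 192 in old cells and 383 in young cells. Their log2 ratios, -0.984 and -0.996, lay 0.01 apart, the closest match among the 4 members with more than 1 probe set above the floor. Lmnb1 passed the 2-fold line on the values as deposited (-1.11) and with quantile normalization (-1.03). Of the genes above the floor on both arrays, 1089 lay further to the young-cell side.

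**Figure D3:**
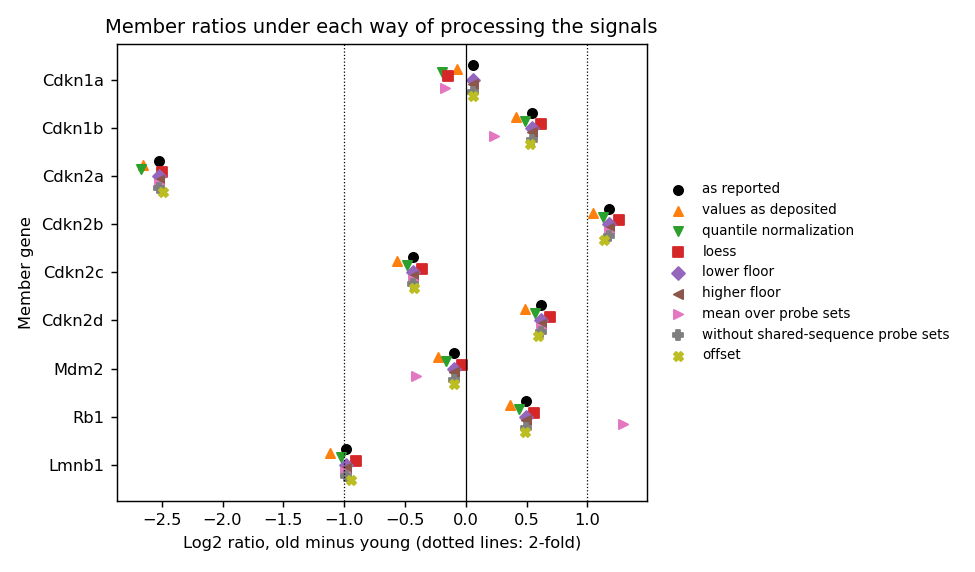
Log2 ratio, old minus young (x axis), of each member (y axis) as reported (black circles) and under the 8 alternative ways of processing the signals (coloured symbols), with dotted lines at 2-fold. Cdkn2a stays between -2.67 and -2.49 and Cdkn2b between 1.05 and 1.26, Lmnb1 straddles the line on the young-cell side, and Rb1 leaves its place only in the mean over probe sets, at 1.29.

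The other genes of these pathways were taken from 13 lists with 260 genes, of which 246 were on the array and 236 above the floor on at least 1 array. For a gene below the floor on 1 array the floor stood in for the missing value and the fold is a lower bound. In all, 42 of the 236 were 2-fold or more higher in old cells and 52 in young cells. The background over the 12105 genes above the floor on at least 1 array, lower bounds included, was 16% higher in old cells and 11.3% higher in young cells. The median over the 236 genes was -0.13, against 0.03 over the 12105.

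Among other CDK inhibitors and proteins related to them, 1 of 8 was higher in old cells and 1 in young cells (median 0.02). Cdkn1c, the third Cip/Kip inhibitor (p57) and an imprinted gene, read 3151 in old cells and 129 in young cells and was 24.3-fold higher in old cells. It had a far larger ratio than either Cdkn1a or Cdkn1b. Cdkn3, a phosphatase gene expressed in dividing cells, was below the floor in old cells, with 382 in young cells, at least 5.18-fold higher in young cells. Cdkn2aipnl (0.56) and Cables2 (-0.62) were within 2-fold.

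The Rb family and its partners had 0 of 20 members higher in old cells and 5 in young cells (median -0.13). The pocket protein genes Rbl1 and Rbl2 had log2 ratios of 0.34 and 0.32, on the same side as Rb1 and within 2-fold. Of these 5, all but the DP gene Tfdp1 (2.76-fold) were E2F genes. E2f1 read 129 in old cells and 528 in young cells, 4.08-fold higher in young cells, although its probe sets ranged from -2.03 to -0.79. E2f8 (at least 7.42-fold) and E2f2 (at least 7.04-fold) were below the floor in old cells, and E2f6, a repressor, was 3.80-fold higher in young cells, with probe sets from -1.93 to -0.90. The remaining E2F genes above the floor were within 2-fold, E2f3 at -0.28, E2f5 at -0.11, E2f7 at -0.16 and E2f4 at 0.59.

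Cyclins and CDKs, the targets of the inhibitors, had 0 of 15 higher in old cells and 5 in young cells (median -0.62). These were the genes of cyclins that act from the G1/S transition to mitosis, Ccna2 (7.55-fold), Ccnb2 (6.57-fold), Ccne2 (5.77-fold) and Ccne1 (4.72-fold), and the kinase gene Cdk1 (2.32-fold). Cdk4 and Cdk6, the kinases that the INK4 proteins bind, had log2 ratios of -0.17 and -0.62, and the D-type cyclin genes Ccnd1, Ccnd2 and Ccnd3 had -0.41, -0.23 and 0.98. For Ccnd1 the probe sets ranged from -1.47 to -0.41 and for Ccnd2 from -1.80 to -0.23, so some passed 2-fold on the young-cell side. Proliferation genes lay on the same side, with 1 of 27 higher in old cells and 18 in young cells (median -2.09), or 8 of 22 in young cells (median -0.49) with a floor of 489. Mki67, the proliferation marker Ki-67, read 282 in old cells and 1551 in young cells. Kif20a (7.44-fold), Ube2c (7.20-fold), Kif11 (6.72-fold) and Cdc20 (6.58-fold), all of mitosis, were also higher in young cells, although Kif11 read 77.7 in old cells, little over the floor. With 1 array per age, age and sample cannot be told apart in any of these values.

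Genes that act on p53 had 1 of 20 higher on each array (median -0.13). The kinase gene Hipk2 was 3.92-fold higher in old cells, with 4 probe sets from 1.79 to 1.97, and the checkpoint kinase gene Chek1 2.51-fold higher in young cells, a value it lacks in the mean over probe sets. Mdm4, the partner of Mdm2, had a log2 ratio of 0.91, or 0.26 without probe sets that can match several transcripts, and Rchy1, another ubiquitin ligase gene, -0.90. Other p53 target genes split, with 4 of 27 higher in old cells and 6 in young cells (median -0.33). The death receptor gene Fas (10.6-fold), Plk3 (6.69-fold), the repair gene Xpc (6.63-fold) and Perp (2.42-fold) were on the old-cell side. On the young-cell side were Ckap2 (5.34-fold) and Gtse1 (2.04-fold), which are also genes of dividing cells, and Tigar (3.95-fold), a regulator of sugar metabolism, Phlda3 (3.09-fold), a repressor of Akt, Zmat3 (2.58-fold), which encodes an RNA-binding protein, and the cell death gene Bbc3 (2.13-fold).

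Genes of p27 and p21 turnover had 0 of 14 higher in old cells and 4 in young cells (median -0.37). All of these 4 have roles in dividing cells. Skp2, which recognises p27 for degradation, was 2.17-fold higher in young cells, its cofactor gene Cks1b 3.85-fold, Cks2 2.86-fold and Dtl, which directs p21 degradation in S phase, 3.85-fold. FoxO factors, which activate Cdkn1b, and their kinases had 1 of 8 higher in old cells and 2 in young cells (median 0.11). Foxo3 (2.32-fold) and Foxo4 (2.13-fold) were higher in young cells and the kinase gene Sgk1 (2.13-fold) in old cells, and Foxo1 had -0.38. Sgk1 was under 2-fold on the values as deposited (0.96), with quantile normalization (0.39) and with loess (0.56), and Foxo3 (-0.77) and Foxo4 (-0.74, against the floor) in the mean over probe sets, Foxo4 also with loess (-0.99) and the offset (-0.95).

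Repressors of the Ink4b-Arf-Ink4a locus, mostly Polycomb genes, had 2 of 19 higher on each array (median -0.25), and 4 in young cells on the values as deposited and with quantile normalization. Ezh2, the Polycomb methyltransferase and a gene of dividing cells, read 334 in old cells and 1135 in young cells and was 3.40-fold higher in young cells, and Cbx6 was 2.41-fold higher there. Bmi1, a repressor of Cdkn2a in mice, had a log2 ratio of -0.70, within 2-fold. Any link of these repressors to the Cdkn2a ratio was not tested. Tbx2, a T-box repressor of the locus, was 13.9-fold and Cbx7 at least 5.68-fold higher in old cells, although Cbx7 had a log2 ratio of 0.36 in the mean over probe sets. Among transcription regulators described to act on the INK4 genes or Cdkn1a, 14 of 22 were higher in old cells and 0 in young cells (median 1.07). They were led by the immediate early genes Egr1 (121-fold) and Junb (42.1-fold) and the inhibitor genes Id4 (at least 63.3-fold) and Id3 (10.4-fold), and the count was 8 of 22 with quantile normalization. Of the regulators, Smad2, Smad3 and Smad4, which carry TGF-beta signals to Cdkn2b, had log2 ratios of -0.51, -0.49 and 0.49 and so did not share a sign. Any link of TGF-beta signalling to the Cdkn2b ratio was not tested.

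The nuclear lamina genes had 2 of 16 higher on each array (median 0.39). Lmna, the A-type lamin gene, read 1249 in old cells and 2911 in young cells, 2.33-fold higher in young cells with 3 probe sets from -2.07 to -1.22, on the same side as Lmnb1. Lmnb2 had a log2 ratio of 0.11, with signals of 234 in old cells and 218 in young cells. Syne2 (3.26-fold) and Syne1 (2.62-fold), which link the envelope to the cytoskeleton, were higher in old cells, although Syne2 has no value above the floor in the mean over probe sets or without probe sets that can match several transcripts, and the farnesyltransferase gene Fntb (2.32-fold), whose product prenylates lamins, in young cells.

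**Figure D4:**
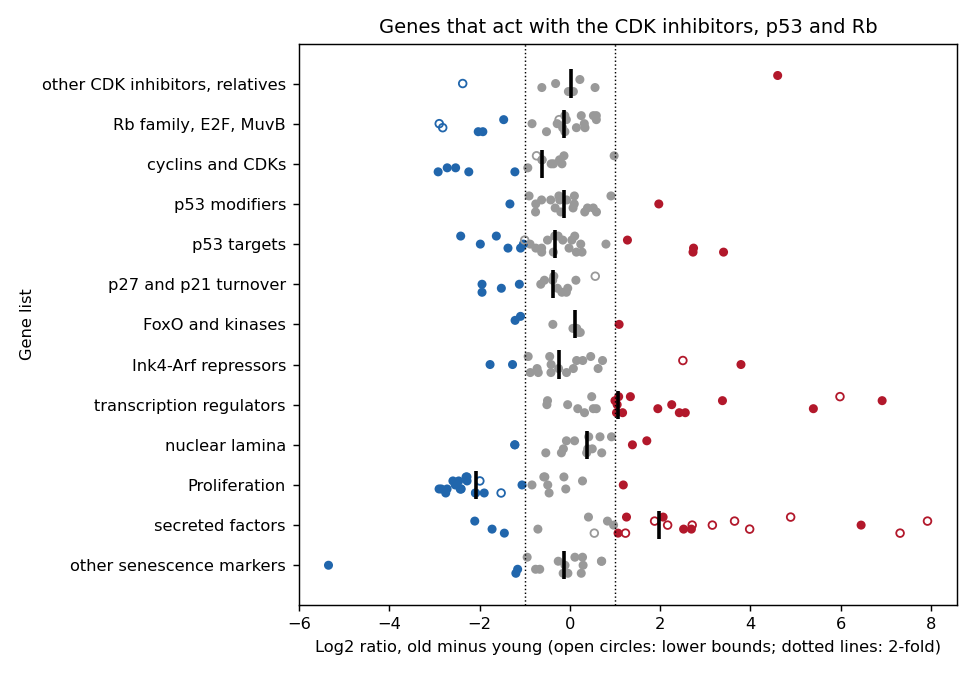
Log2 ratio, old minus young (x axis), of each gene above the floor on at least 1 array in the 13 pathway lists (y axis), with filled circles for measured ratios, open circles for lower bounds, bars for list medians and dotted lines at 2-fold (red higher in old cells, blue in young cells, grey within 2-fold). Proliferation genes cluster on the young-cell side (median -2.09), transcription regulators and secreted factors on the old-cell side (medians 1.07 and 1.97), and the other lists have medians between -0.62 and 0.39.

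Secreted factors described in senescent cells were mostly on the old-cell side, with 16 of 24 higher there and 3 in young cells (median 1.97), or 9 of 17 in old cells (median 1.07) with a floor of 489. The chemokine gene Cxcl10 (at least 243-fold), the cytokine gene Il1a (at least 159-fold), Cxcl1 (87.6-fold, where young cells read 75.7, little over the floor) and Cxcl2 (at least 29.7-fold) led the list. The probe sets of Cxcl1 ranged from 2.64 to 6.45. These factors are also made by activated leukocytes and endothelium, and the leukocyte and macrophage markers above were higher on the same array. The part of those cell types in these ratios was not tested. Other genes used as senescence markers had 0 of 16 higher in old cells and 3 in young cells (median -0.13), namely Gpnmb (40.7-fold), Cavin1 (2.29-fold) and Plaur (2.23-fold), with Cav1 at -0.94. Cavin1 was under 2-fold in the mean over probe sets (-0.80), and Cav1 passed it on the values as deposited (-1.08), with quantile normalization (-1.35) and with loess (-1.20).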

How the data were processed

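The authors deposited 1 linear MAS5 intensity for every probe set and array, made with GCOS 1.4 and MAS5 per the submitters' processing notes. The 2% trimmed mean was 500.003 on both arrays. Data below the level of the probe set were not analysed here. Of 45101 probe sets, 64 controls were left out. Genes were named from the platform annotation of 2016 (34958 probe sets with 1 symbol, 932 with several, 9211 with none). Both arrays were then scaled to a median log2 ratio of 0 over non-control probe sets at or above each array's own median on both arrays (factors 1.05 for old and 0.956 for young). That median was -0.13 in the deposited intensity values. The floor was the higher of the arrays' medians over non-control probe sets after scaling. The brightest probe set stood for a gene.

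The members, lists and tests were chosen with earlier results of these data known. Outside the members, the text names from each list the 4 genes with the largest ratios and 10 fixed partners (Cdkn1c, Rbl1, Rbl2, Mdm4, Lmna, Lmnb2, Skp2, Bmi1, Ezh2 and Mki67). Cdk1, Cdk4, Cdk6, Ccnd1, Ccnd2, Ccnd3, E2f3, E2f4, E2f5, E2f7, Tfdp1, Perp, Tigar, Phlda3, Zmat3, Bbc3, Gtse1, Smad2, Smad3, Smad4 and the markers were named after their values were seen. With 1 array per group no test was made and no likeness over samples could be computed. The procedure was tested on simulated data with known ratios. Their noise was smaller than the spread between probe sets of a gene here, so the simulation does not give the precision of the values above. Alternatives were the deposited values, quantile normalization, loess (span 0.4), floors at the 25 and 75 percentiles, the mean over probe sets, leaving out _x_at and _s_at probe sets (which can match several transcripts), and 0.5 of the floor added as an offset. Python 3.11.15, numpy 2.4.6, pandas 2.3.3, statsmodels 0.14.6 and matplotlib 3.10.9 were used. Promoter windows came from RefSeq (GRCm38.p6), and no build is named for the array values.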

Additional observations from a re-analysis of the deposited data

How the results depend on the processing

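Of the 72 ratios of members under the 8 alternatives, 31 were identical to the reported ones, since both other floors, leaving out probe sets that can match several transcripts and, for genes with 1 probe set, the mean over probe sets left them as they were. Of the 41 that changed, 40 moved by less than the SD between probe sets (0.42). The exception was Rb1, at 1.29 in the mean over probe sets, where a probe set below the floor on both arrays enters. This made 2 members higher on the old array, where 1680 of 11111 genes were higher in that setting, lower bounds included. On the young array 2 members, Cdkn2a and Lmnb1, were 2-fold or more higher on the values as deposited and with quantile normalization. Of all genes, 1623 of 12178 and 1601 of 12365 were higher there under these scalings, lower bounds included. No result about the members is drawn from these counts. Those scalings put the median of all genes at -0.14 and -0.12, and relative to it Lmnb1 had -0.97 and -0.90. Of the 9 members, 8 kept their sign in every setting, Cdkn1a being the exception. The higher floor, at 489 signal units, left 8 of 22 proliferation genes higher on the young array (median -0.49), 9 of 17 secreted factors on the old (1.07), and 2 of 14 Rb family genes, 3 of 13 cyclins and CDKs, 2 of 11 turnover genes and 3 of 23 p53 targets on the young, since genes dimmer than it lose their value or become bounds. Under it E2f1, E2f2, E2f8, Ccne1, Ccne2, Kif11, Kif20a, Skp2 and Plk3 fell under 2-fold, and Cdkn3, Chek1, Dtl, Cbx7, Foxo4, Lmnb2, Syne2 and Fntb had no value. In the mean over probe sets E2f8, Dtl, Rbl1, Mdm4, Chek1 and Syne2 had none. No paired analysis was possible because each age has 1 array, and leaving out an array leaves no comparison. Signal over the floor limits Rb1 and Mdm2, each with a probe set below it.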
